A study of Mus musculus with 288 samples.

Results

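Lipid droplets are stores of triacylglycerol wrapped in a coat of proteins. Perilipins and the droplet-fusing protein CIDEC cover the droplet and set how easily lipases reach it. The lipases then act in sequence: ATGL (gene Pnpla2) takes the first fatty acid from triacylglycerol, hormone-sensitive lipase (Lipe) mainly takes the next from diacylglycerol, and monoacylglycerol lipase (Mgll) releases the last. G0S2 binds ATGL and inhibits it. In fat these proteins serve the storage and release of fuel, and in liver, heart and muscle they handle fatty acids taken up from blood.

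Expression of 9 genes of this machinery is described: the coat genes Plin1, Plin2, Plin4, Plin5 and Cidec, the inhibitor gene G0s2, and the lipase genes Pnpla2, Lipe and Mgll. They were chosen by symbol, as probe sets annotated to a single one of these symbols. Each gene had 1 such probe set, so the members are 9 of 35556 probe sets and 9 of 19938 named genes. The arrays came from C57/BL6 mice held for 1 week in 12 h of light and 12 h of dark and then kept in darkness, and all tissues share this treatment. White and brown adipose, liver, kidney, adrenal gland, heart, skeletal muscle, aorta, lung, hypothalamus, cerebellum and brainstem were each sampled at 2 h steps. Sampling ran from CT18 to CT64, in circadian time (CT), where CT0 to CT12 is subjective day and CT12 to CT24 subjective night. Each of the 288 arrays held RNA pooled from 3 mice, with 24 arrays per tissue and no replicate at a time point. No other genotype enters, and sex and age are not given in the labels used here. The design asks which genes follow a daily wave in which tissue and when they peak.

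Values are the log2 of the authors' normalized intensities. Array medians of the deposited intensities lay between 95.2 and 106.6, and the lowest median correlation of any array to its own tissue was 0.96, in white adipose at CT64. In all, 20 arrays stood apart from their tissue by marker genes or by correlation: 5 each in skeletal muscle and white adipose, 3 in adrenal gland, 2 each in heart and hypothalamus, and 1 each in aorta, kidney and liver. They stayed in every fit and were left out in an alternative. The mean of 8 measured adipocyte markers (Adipoq, Retn, Lep, Acvr1c, Aqp7, Trarg1, Cyp2e1 and Car3, of 10 listed) was 12.08 in white adipose, 11.69 in brown adipose, 11.26 in aorta and 10.41 in adrenal gland. It was 8.83 in skeletal muscle, 8.46 in kidney, 7.66 in liver, 7.16 in lung and 7.03 in heart. None of these intensities was at 0. Liver cells make Cyp2e1 too, so a stricter mean of 5 markers without Cyp2e1, Car3 and Aqp7 was also used. The mean of 10 brown adipocyte markers was 10.76 in brown adipose, 10.03 in aorta and 6.28 in white adipose.

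Most members were highest in the fat depots, and 8 of 9 had their highest tissue mean in white or brown adipose. Plin1, the main coat protein of adipocytes (chromosome 7 from 79721164 to 79732904, build GRCm38.p6), had a median of 12.46 in brown adipose (12.26 to 12.55 over arrays) and 12.34 in white adipose (12.05 to 12.50). These ranges overlapped each other and white adipose overlapped aorta (median 11.96, 11.72 to 12.16). Adrenal gland followed apart from its neighbours at 10.86 (10.20 to 11.10), and all other tissues lay below it without overlap, down to a mean of 6.06 in brainstem. Cidec, which fuses droplets into the large one of the fat cell (chromosome 6 from 113424634 to 113435760), kept nearly this order. Its median was 12.33 in white adipose (12.16 to 12.59), 12.06 in brown adipose (11.56 to 12.33) and 11.68 in aorta (11.37 to 11.94), and its mean in hypothalamus was 5.80. Aorta and adrenal gland thus stood next after the fat depots for both genes, as they did for the adipocyte marker mean; the part of attached fat in these levels was not tested.

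Plin2, the perilipin of most cells outside fat (chromosome 4 from 86626910 to 86670217), was the exception, with its highest level in liver: median 12.50 (12.04 to 12.69), overlapping brown adipose at 11.97 (11.71 to 12.25). Its lowest mean, 7.46, was in hypothalamus. Plin5, which ties droplets to mitochondria in tissues that burn fat (chromosome 17 from 56111597 to 56117606), had medians of 9.61 in brown adipose (9.09 to 9.99), 9.20 in liver (8.38 to 9.59), 9.08 in heart (8.90 to 9.60) and 8.89 in aorta (8.21 to 9.37), and the ranges of neighbours in this order overlapped. White adipose, at 6.87 (6.58 to 7.21), lay below all 4 without overlap. Plin4, a perilipin of nascent droplets (chromosome 17 from 56100587 to 56109948), lies 1648 bases from Plin5 but had another order, with white adipose first at 11.97 (11.63 to 12.28) and brown adipose next at 11.29 (10.99 to 11.47), without overlap. Skeletal muscle (10.10) and heart (10.07) overlapped each other, and kidney, lung and the 3 brain regions had means from 6.46 to 6.90.

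G0s2 (chromosome 1 from 193272160 to 193273188) had medians of 10.06 in brown adipose (9.27 to 10.95), 9.56 in white adipose (8.79 to 10.25), 9.35 in aorta (8.73 to 10.22) and 9.01 in liver (7.93 to 10.10), which all overlapped. Pnpla2 (chromosome 7 from 141455188 to 141460743) separated its top tissues cleanly: brown adipose 13.19 (12.99 to 13.35), aorta 12.84 (12.63 to 12.96) and white adipose 12.28 (11.99 to 12.52), then heart at 11.34 (11.23 to 11.48). Lipe (chromosome 7 from 25379527 to 25398486) was highest in brown adipose, at 12.65 (12.44 to 12.82), above white adipose at 12.14 (11.90 to 12.38) with no overlap. Mgll (chromosome 6 from 88724412 to 88828360), which also breaks down an endocannabinoid in brain, was also well above the tissue median of all genes in the brain regions: 11.64 in white adipose (11.37 to 11.80), 10.73 in liver (10.26 to 11.23) and 9.21 in cerebellum (9.08 to 9.39). The deposited values look normalized tissue by tissue, and when all arrays were quantile normalized together the first place passed to white adipose for Plin1 and Lipe, to brown adipose for Plin2 and to aorta for Pnpla2. In these tissue samples, fewer cells of a type and less RNA per cell cannot be told apart.

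**Figure D1:**
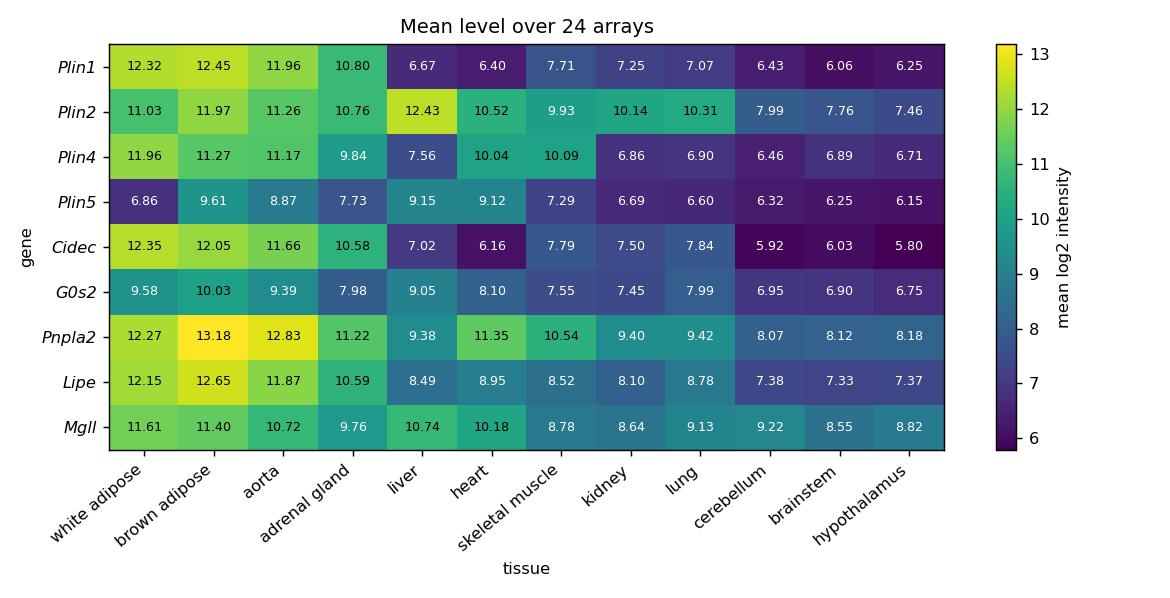
Mean log2 intensity of the 9 genes (rows) in the 12 tissues (columns) over 24 arrays each. Colours are to be compared along a row only, since probe sets of different genes share no scale; the fat depots and aorta stand high in most rows, Plin2 is highest in liver (12.43) and Plin5 is low in white adipose (6.86).

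The DNA just before the start is shown for 3 of the 5 genes with waves in liver, Plin2, Plin5 and Mgll. Each of these 3 held a match. Pnpla2 held none, the Lipe windows lay inside the annotated gene, and neither gene is printed. The bases come from RefSeq on GRCm38.p6, in which all 9 genes were found, and run 5′ to 3′ on the strand of the gene. Only bases before the annotated gene are printed. Capitals mark AGGTCA, the core that nuclear receptors bind, or its reverse complement in Plin2 (chr4:86670218-86670309, minus strand) and Plin5 (chr17:56117607-56117798, minus strand), and the E-box CACGTG, the element that clock activators bind, in Mgll (chr6:88724162-88724411, plus strand).
Plin2: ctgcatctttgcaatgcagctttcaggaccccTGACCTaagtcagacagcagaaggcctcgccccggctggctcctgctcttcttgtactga
Plin5: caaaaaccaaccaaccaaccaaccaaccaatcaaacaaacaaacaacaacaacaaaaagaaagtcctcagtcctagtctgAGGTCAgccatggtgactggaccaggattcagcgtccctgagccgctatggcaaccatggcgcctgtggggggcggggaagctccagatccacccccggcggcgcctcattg
Mgll: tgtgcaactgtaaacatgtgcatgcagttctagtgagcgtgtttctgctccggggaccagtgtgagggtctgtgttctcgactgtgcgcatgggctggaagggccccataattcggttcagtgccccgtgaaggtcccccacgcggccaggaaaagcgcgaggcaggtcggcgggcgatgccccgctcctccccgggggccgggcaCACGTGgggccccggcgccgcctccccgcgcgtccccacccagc
In windows of 250 bases before each annotated start, AGGTCA on either strand was found for Plin2 and Plin5 and in 14.02% of 32851 mouse promoters, and CACGTG for Lipe and Mgll and in 6.02%. The paired nuclear receptor site DR1, 2 copies of AGGTCA with 1 base between them, was in 0.0335% of promoters, the D-box forms TTATGTAA and TTACGTAA in 0.819% and 0.113%, and the TATA sequence TATAAA in 12.4%. None of these 4 was found in the windows of the 9 genes. A match describes letters in a window, and shows neither binding nor a cause of a wave.

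Daily waves were found in 35 of 108 pairs of gene and tissue, by a 24 h cosine wave fitted with limma to the 24 arrays of a tissue and a moderated F test, adjusted by Benjamini-Hochberg over all genes. A wave is said to pass at an adjusted p under 0.05, its size is the fitted peak over the fitted trough with a 95% interval, and its peak time is given with a standard error (SE). With 1 pool per time point, these p-values weigh the wave against the scatter of single pools around it. That scatter also holds array noise and any departure from a cosine shape. Kidney had 6 of 9 members passing, where 25.8% of all genes passed. Liver had 5 (26.8% of all genes), brown adipose 5 (16.5%) and adrenal gland 4 (5.89%). Aorta had 3 (5.09%), lung 3 (20.9%), heart 2 (8.64%), skeletal muscle 2 (5.12%) and white adipose 2 (4.85%). Brainstem (4.78%), cerebellum (5.49%) and hypothalamus (1.8%) had 1 each, in each case Plin4. The median fold of the 9 members was 1.45 in liver, where it was 1.09 over all genes, and 1.43 in adrenal gland, where it was 1.08 over all genes. In white adipose, the depot with the highest adipocyte markers, the members' median fold was 1.13 beside 1.09 over all genes. In hypothalamus the members' median, 1.02, lay below that of all genes, 1.06, and in the other 8 tissues it lay above.

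**Figure D2:**
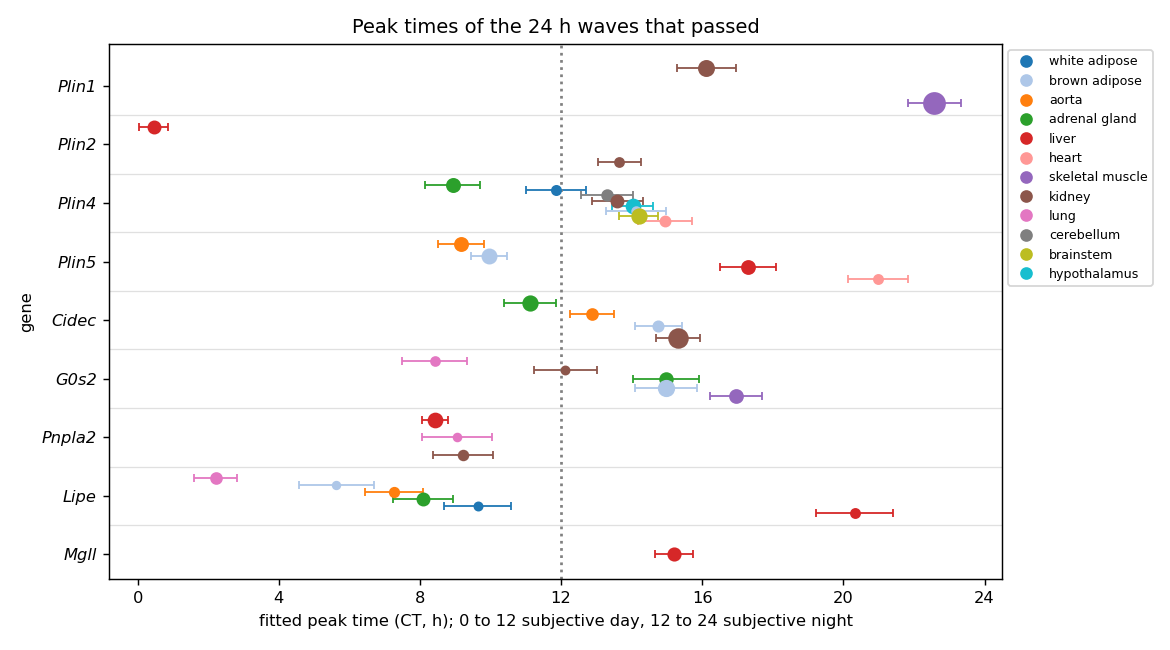
Fitted peak time (CT in h, horizontal) of each of the 35 waves that passed, by gene (rows) and tissue (colour), with bars of 1 SE; larger points have larger log2 fold. Pnpla2 points lie between CT8.42 and CT9.22, Plin4 points between CT8.93 and CT14.9, and Lipe points are spread from CT2.21 to CT20.3.

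Plin4 passed in 8 of 12 tissues, and 0.918% of all genes passed in 8 or more. In brainstem its log2 level ran from 6.36 at CT28 over a median of 6.88 to 7.58 at CT60, a fitted fold of 1.65 (1.42 to 1.91) with a peak at CT14.2 (SE 0.553 h, adjusted p = 0.000166). In hypothalamus it ran from 6.22 over 6.70 to 7.28, a fold of 1.59 (1.38 to 1.84) that peaked at CT14.03 (SE 0.581 h, adjusted p = 0.00145). Cerebellum (1.33-fold, CT13.3), kidney (1.44-fold, CT13.6), brown adipose (1.20-fold, CT14.1) and heart (1.29-fold, CT14.9) peaked within about the same hours of early subjective night. The peak came earlier in white adipose, at CT11.9 (1.23-fold, SE 0.861 h), and in adrenal gland, at CT8.93 (1.53-fold, SE 0.787 h). Plin4 levels in brain and kidney were low, with means below the tissue median of all genes. The adipocyte marker mean varied little in brainstem (5.26 to 5.43), cerebellum (5.47 to 5.61) and hypothalamus (5.45 to 5.61), and with it as a covariate Plin4 passed in these 3 regions. There the marker mean lay below the tissue median of all genes, with waves of 1.02-fold, 1.01-fold and 1.02-fold in the same order. With markers this low and flat, that fit cannot show what part fat cells had in the Plin4 waves. In adrenal gland, where Plin4 and the adipocyte mean were correlated (r = 0.81, rho = 0.80, r = 0.77 without the 2 arrays farthest from the median), the wave with that covariate was 1.24-fold (adjusted p = 0.235). The correlation was nearly as high in kidney (r = 0.79, rho = 0.72, r = 0.70 without the 2 farthest arrays), where the markers peaked at CT15.9. With the covariate the Plin4 24 h wave in kidney was 1.23-fold and passed (adjusted p = 0.00681), but its fitted peak moved to CT9.64. In white adipose the correlation was r = 0.67, rho = 0.69 and, without the 2 farthest arrays, r = 0.66. The call in white adipose was lost with arrays centred on their median (adjusted p = 0.117), and those in cerebellum (0.0983) and heart (0.0748) with a brown adipocyte covariate.

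**Figure D3:**
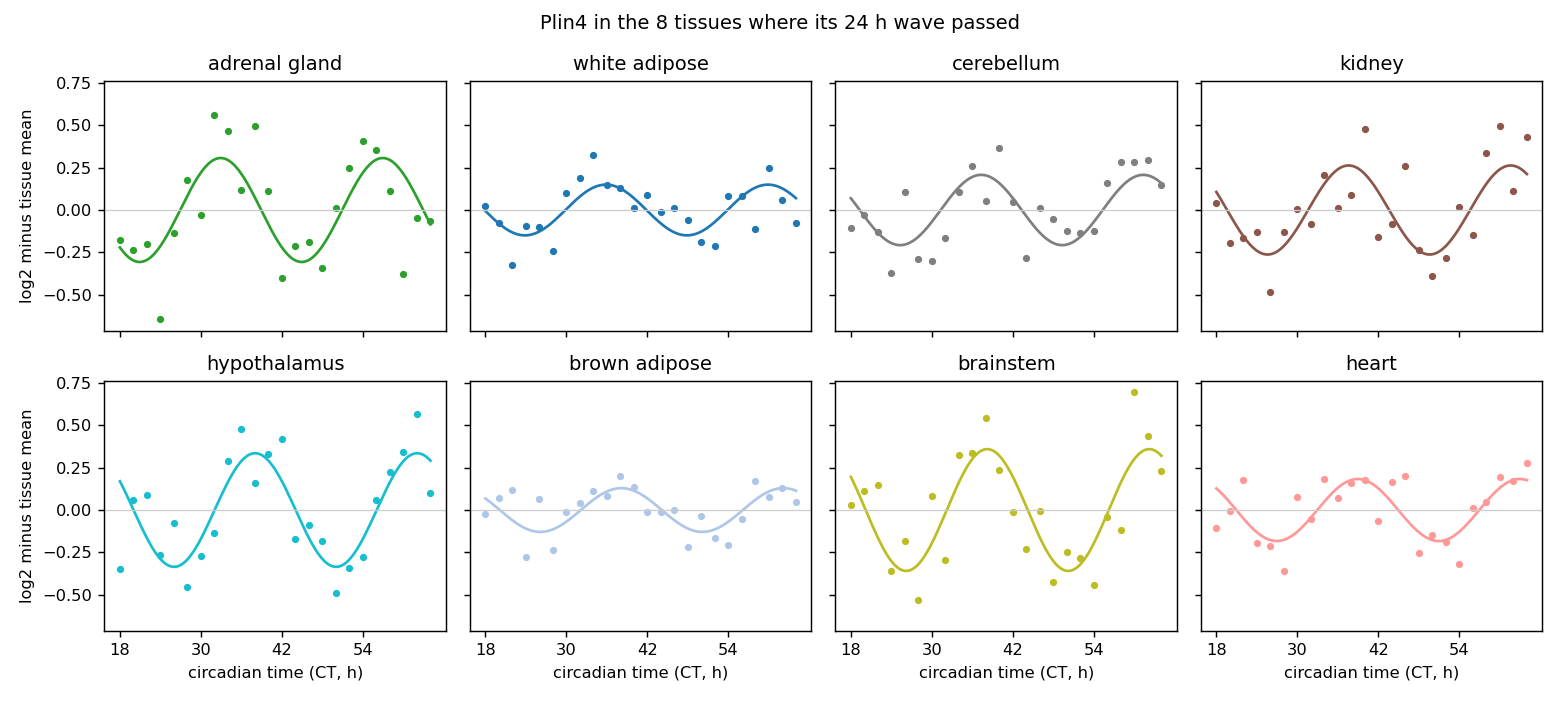
Plin4 in the 8 tissues where its wave passed, as log2 intensity minus the tissue mean (vertical) against circadian time in h (horizontal); points are single pools and lines the fitted 24 h waves, ordered by peak time. The fitted waves range from 1.20-fold in brown adipose to 1.65-fold in brainstem.

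Plin1 and Cidec had their largest waves in tissues where their levels were low. In skeletal muscle Plin1 ran from 6.93 at CT34 over a median of 7.50 to 8.94 at CT24, a fold of 2.35 (1.67 to 3.29) with a peak at CT22.6 (SE 0.740 h, adjusted p = 0.00557). In kidney it ran from 6.46 over 7.17 to 8.09, a fold of 1.71 (1.34 to 2.17) with a peak at CT16.1 (SE 0.837 h, adjusted p = 0.00379). The highest muscle pools were therefore in late subjective night and the highest kidney pools earlier in that night. Cidec in kidney ran from 6.72 over 7.41 to 8.52 and had a fold of 2.07 (1.62 to 2.63) at CT15.3 (SE 0.619 h, adjusted p = 0.000139). In skeletal muscle its wave was 1.91-fold (1.32 to 2.77) at CT21.8 and did not pass (adjusted p = 0.0762).

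Both genes rose and fell with the adipocyte markers in these tissues. The marker mean itself ranged from 8.33 to 9.89 in skeletal muscle, with a wave of 1.86-fold at CT22.4, and from 8.06 to 8.91 in kidney, with a wave of 1.41-fold at CT15.9. Over the 24 muscle arrays Plin1 was correlated with it at r = 0.98 and rho = 0.96 (r = 0.98 without the 2 arrays farthest from the median), and Cidec at r = 0.97 and rho = 0.86 (r = 0.95). In kidney the values were r = 0.93 and rho = 0.89 for Plin1 (r = 0.89) and r = 0.97 and rho = 0.96 for Cidec (r = 0.95). Each of these had a permutation p of 1e-05 for r and for rho, the smallest that 100000 shuffles could give, or 0.00012 and 9e-05 adjusted over 108 pairs. The shuffles ignore time of day, so 2 series that only share a 24 h wave can also give small p-values. For the same reason a fit with this mean as a covariate cannot part markers from time of day. Over all 108 pairs, 38 were related to this mean, with adjusted permutation p under 0.05 for both r and rho. They included 3 of 9 members in brainstem (r up to 0.66) and 3 of 9 in cerebellum (r up to 0.68), where the markers were low. An r of that size was thus not particular to tissues with high adipocyte markers. With the marker mean as a covariate the Plin1 fold was 1.10 in muscle (adjusted p = 0.835) and 1.10 in kidney (adjusted p = 0.687, with the fitted peak at CT2.86), and the Cidec fold in kidney 1.13 (adjusted p = 0.121). Muscle also carried lymphocyte markers, with a mean of 5.43 to 7.50 and 5 arrays that stood apart, and without these arrays Plin1 was 1.78-fold (adjusted p = 0.230). These arrays were at CT22, CT24, CT42, CT44 and CT46, around the Plin1 peak on both days. Leaving them out removed pools near the peak, so this fit cannot part the wave from these pools. The lymphocyte mean had itself a wave of 2.56-fold at CT21.2. With a lymphocyte covariate the Plin1 call was lost in muscle (1.46-fold, adjusted p = 0.491) and in kidney (1.45-fold, adjusted p = 0.261). What part the marker changes had in these waves was not tested further.

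**Figure D4:**
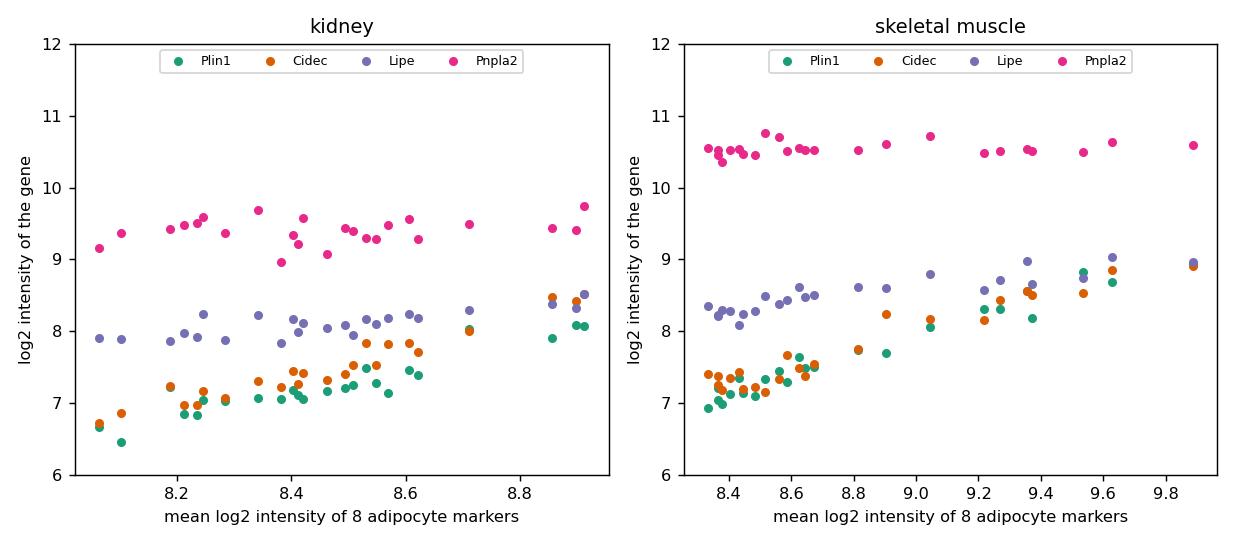
Log2 intensity of Plin1, Cidec, Lipe and Pnpla2 (vertical) against the mean log2 intensity of 8 adipocyte markers (horizontal) in the 24 kidney arrays and the 24 skeletal muscle arrays. Plin1 and Cidec climb with the markers in both tissues (r from 0.93 to 0.98), while Pnpla2 shows no such climb (r = 0.23 in kidney and 0.18 in skeletal muscle).

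In fat itself Plin1 varied little, by 1.04-fold (0.979 to 1.10) in brown and 1.09-fold (1.001 to 1.18) in white adipose, and neither wave passed (adjusted p = 0.657 and 0.459). Cidec passed in brown adipose, where it ran from 11.56 at CT24 over 12.06 to 12.33 at CT38, a fold of 1.30 (1.19 to 1.43) at CT14.8 (SE 0.668 h, adjusted p = 0.000749). It also passed in aorta (1.35-fold, 1.22 to 1.49, CT12.9) and in adrenal gland (1.64-fold, 1.35 to 1.99, CT11.1), 2 tissues with high adipocyte markers. In adrenal gland Cidec was correlated with the marker mean at r = 0.87, rho = 0.82 and, without the 2 farthest arrays, r = 0.79. The hepatocyte marker mean varied widely over the adrenal arrays, from 6.54 to 12.23, and its part in the adrenal results was not tested. The Cidec fold there was 2.13 on the first day alone and 1.35 on the second.

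Plin2 passed in liver and in kidney. In liver it ran from 12.04 at CT38 over 12.50 to 12.69 at CT46, a fold of 1.45 (1.33 to 1.57) with a peak at CT0.460 (SE 0.413 h, adjusted p = 5.28e-07). The separate days gave peaks at CT0.507 and CT0.419. In kidney the fold was 1.22 (1.14 to 1.30) at CT13.7 (SE 0.622 h, adjusted p = 0.000148), so the kidney peak fell near the trough in liver. In kidney Plin2 also moved with the adipocyte markers (r = 0.71, rho = 0.72, r = 0.64 without the 2 farthest arrays), which peaked at CT15.9. Values of r near this were also reached by Plin1 in brainstem (0.66) and Plin5 in cerebellum (0.68), regions low in these markers. With their mean as a covariate the Plin2 24 h wave in kidney was 1.14-fold at CT11.98 (adjusted p = 0.0106). In hypothalamus the fold was 1.14 (1.07 to 1.22, adjusted p = 0.0639) and in white adipose 1.20 (1.04 to 1.39, adjusted p = 0.274). Plin2 held both calls under all 16 alternatives.

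Plin5 peaked at different times in different tissues. In brown adipose it ran from 9.09 at CT44 over 9.61 to 9.99 at CT32, a fold of 1.61 (1.41 to 1.84) at CT9.95 (SE 0.512 h, adjusted p = 2.85e-05). In aorta the fold was 1.52 (1.32 to 1.77) at CT9.15. In liver it ran from 8.38 at CT54 over 9.20 to 9.59 at CT60, a fold of 1.52 (1.27 to 1.81) at CT17.3 (SE 0.794 h, adjusted p = 0.00230). In heart the fold was 1.22 (1.12 to 1.34) at CT21.0 (SE 0.859 h, adjusted p = 0.0113). Brown adipose and aorta thus peaked in late subjective day and liver and heart in subjective night. Brown adipose arrays varied in skeletal muscle markers, whose mean ran from 6.63 to 11.73, and the Plin5, Cidec, G0s2 and Plin4 waves there passed with this mean as a covariate. The muscle marker mean had itself a wave of 7.6-fold at CT23.1 in brown adipose, so that fit cannot part markers from time of day. In aorta its wave was 3.05-fold at CT10.9, near the Plin5 peak. What part muscle markers had in these waves was not tested further. In white adipose, where its level was low, Plin5 had a fold of 1.13 (1.01 to 1.26, adjusted p = 0.403).

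G0s2, the inhibitor of ATGL, passed in 5 tissues, and 5.20% of all genes passed in 5 or more. In brown adipose it ran from 9.27 at CT54 over 10.06 to 10.95 at CT38, a fold of 1.73 (1.34 to 2.24) at CT15.0 (SE 0.876 h, adjusted p = 0.00896). Skeletal muscle ran from 7.10 over 7.49 to 8.10, a fold of 1.51 (1.28 to 1.78) at CT17.0, and adrenal gland had a fold of 1.49 (1.22 to 1.82) at CT15.0. Smaller waves passed in kidney (1.16-fold, CT12.1) and lung (1.21-fold, CT8.42). The widest spread was in liver, from 7.93 at CT28 over 9.01 to 10.10 at CT48, where the fold of 1.98 (1.27 to 3.08) at CT16.9 did not pass (adjusted p = 0.0531). Heart (1.35-fold, 1.14 to 1.60, CT16.2, adjusted p = 0.0541) and white adipose (1.58-fold, 1.21 to 2.06, CT16.9, adjusted p = 0.0979) also missed. The liver wave passed under 5 of the alternatives, among them a straight line as covariate (adjusted p = 0.0302). The adrenal call was lost without the 3 arrays that stood apart, at a nearly equal fold of 1.48 (adjusted p = 0.164), with a skeletal muscle covariate (1.46-fold, 0.156) and with a straight line (1.48-fold, 0.0561), and the brown adipose call in a rank-based fit with an ordinary F test (0.0719).

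Pnpla2, which encodes the lipase that G0S2 inhibits, passed in liver, kidney and lung, in each with a peak in late subjective day. In liver it ran from 8.999 at CT42 over 9.25 to 9.82 at CT56, a fold of 1.59 (1.45 to 1.75) at CT8.42 (SE 0.366 h, adjusted p = 8.06e-08). Kidney had a fold of 1.26 (1.14 to 1.40) at CT9.22 and lung 1.14 (1.06 to 1.22) at CT9.04, and the lung call was lost with quantile normalization (adjusted p = 0.0666). In the fat depots, where its level was high, the fold was 1.08 in brown adipose (1.01 to 1.15, adjusted p = 0.205) and 1.08 in white adipose (0.974 to 1.21, adjusted p = 0.644).

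The balance of lipase and inhibitor transcripts varied over the day in some tissues. The per-array difference of log2 Pnpla2 minus log2 G0s2 had a 24 h wave that passed in 5 of 12 tissues, by a permutation test with 100000 shuffles of the time points, adjusted over the tissues. The wave was 2.81-fold in liver, with the difference highest at CT6.31 and lowest at CT18.3 (adjusted p = 0.00644). It was 1.71-fold in brown adipose (highest at CT3.51, 0.0111), 1.63-fold in skeletal muscle (CT4.78, 0.00228), 1.63-fold in adrenal gland (CT4.95, 0.00306) and 1.52-fold in white adipose (CT5.52, 0.0267). In all 5 the difference was high in subjective day and low in subjective night. Of these, only liver had a Pnpla2 wave that passed alone in limma's moderated F test. The adjusted p of Pnpla2 was 0.205 in brown adipose, 0.387 in skeletal muscle, 0.253 in adrenal gland and 0.644 in white adipose. The low points in the same order (CT15.5, CT16.8, CT16.9 and CT17.5) lay near the G0s2 peaks (CT15.0, CT17.0, CT15.0 and CT16.9). The fitted wave of the difference follows from the fitted waves of the 2 genes. In the same order G0s2 was 1.73-fold, 1.51-fold, 1.49-fold and 1.58-fold, and Pnpla2 1.08-fold, 1.08-fold, 1.27-fold and 1.08-fold. The G0s2 wave was thus the larger in each of these 4 tissues. Whether the 2 genes differed in wave size was not tested. Aorta, heart and kidney missed (adjusted p = 0.0638, 0.0629 and 0.0629), with highest points at CT2.95, CT3.92 and CT6.67. White adipose was lost without the 5 arrays that stood apart (adjusted p = 0.0986).

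Lipe passed in 6 tissues with small waves, and 2.82% of all genes passed in 6 or more. In lung it ran from 8.42 at CT58 over 8.75 to 9.28 at CT50, a fold of 1.35 (1.22 to 1.48) at CT2.21 (SE 0.606 h, adjusted p = 0.000148), and both days alone peaked at CT2.22 and CT2.21. Aorta (1.25-fold, CT7.27), adrenal gland (1.45-fold, CT8.08) and white adipose (1.16-fold, CT9.63) peaked later in subjective day, and brown adipose (1.12-fold, CT5.63) between these and lung. Liver, at 1.22-fold (1.09 to 1.38) and CT20.3 (SE 1.09 h, adjusted p = 0.0295), peaked 11.9 h from liver Pnpla2 (SE 1.15 h, taking the fits as independent). The other 5 calls were each lost under some alternatives. White adipose was lost under 8 of 16 alternatives (adjusted p up to 0.250), brown adipose under 6 of 15 (up to 0.149), liver and adrenal gland under 5 of 16 each (up to 0.256 and 0.217) and aorta under 2 of 16 (up to 0.166). The adipocyte mean as a covariate ended the Lipe calls in liver (1.13-fold, adjusted p = 0.256), adrenal gland (1.21-fold, 0.217) and brown adipose (1.14-fold, 0.149), and the 5-marker mean those in liver and brown adipose (0.139 and 0.109). Lipe moved with the adipocyte mean in adrenal gland (r = 0.80, rho = 0.81, r = 0.77 without the 2 farthest arrays) and in white adipose (r = 0.64, rho = 0.63, r = 0.59), and against it in liver (r = -0.64, rho = -0.63, r = -0.59). In brown adipose the relation did not pass (r = -0.40, adjusted p = 0.109 by permutation). In lung it was weaker (r = 0.54, rho = 0.48, r = 0.41), and the call passed with the adipocyte covariate there, as it did in white adipose and aorta. With the brown adipocyte mean as a covariate the aorta call was lost (1.17-fold, adjusted p = 0.166). The same covariate ended the calls in adrenal gland (0.172), liver (0.0863) and brown adipose (0.0626), and those in lung and white adipose passed. In aorta the brown adipocyte mean had itself a wave of 1.19-fold at CT6.03.

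Mgll passed in liver, where it ran from 10.26 at CT28 over 10.73 to 11.23 at CT64, a fold of 1.46 (1.31 to 1.63) at CT15.2 (SE 0.537 h, adjusted p = 2.39e-05). The adrenal wave of 1.43-fold (1.16 to 1.75) missed, with an adjusted p of 0.0742, as did the kidney wave of 1.13-fold (1.04 to 1.23), with an adjusted p of 0.0634. The liver call held under all 16 alternatives.

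Set side by side, the liver members followed each other around the day. Plin2 peaked at CT0.460, Pnpla2 7.96 h later (SE 0.552 h), Mgll 6.77 h after Pnpla2 (SE 0.650 h), then Plin5 at CT17.3 and Lipe at CT20.3. Plin2 peaked 7.15 h after Plin5 (SE 0.895 h). In brown adipose the order was Lipe at CT5.63, Plin5 at CT9.95, Plin4 at CT14.1, Cidec at CT14.8 and G0s2 at CT15.0, and Cidec peaked 4.80 h after Plin5 (SE 0.842 h). In kidney Pnpla2 (CT9.22) came before G0s2 (CT12.1), Plin4 (CT13.6), Plin2 (CT13.7), Cidec (CT15.3) and Plin1 (CT16.1). Plin4, Plin2, Cidec and Plin1 moved there with the adipocyte markers, which peaked at CT15.9. With the marker mean as a covariate Plin4 and Plin2 passed at earlier peaks, and Cidec (CT11.2) and Plin1 (CT2.86) did not pass. Some neighbours lay within their SE: Cidec came 0.797 h before Plin1 (SE 1.04 h). In brown adipose Plin4, Cidec and G0s2 (SE 0.847, 0.668 and 0.876 h) were not resolved either. These gaps take the fits of 2 genes on the same arrays as independent.

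**Figure D5:**
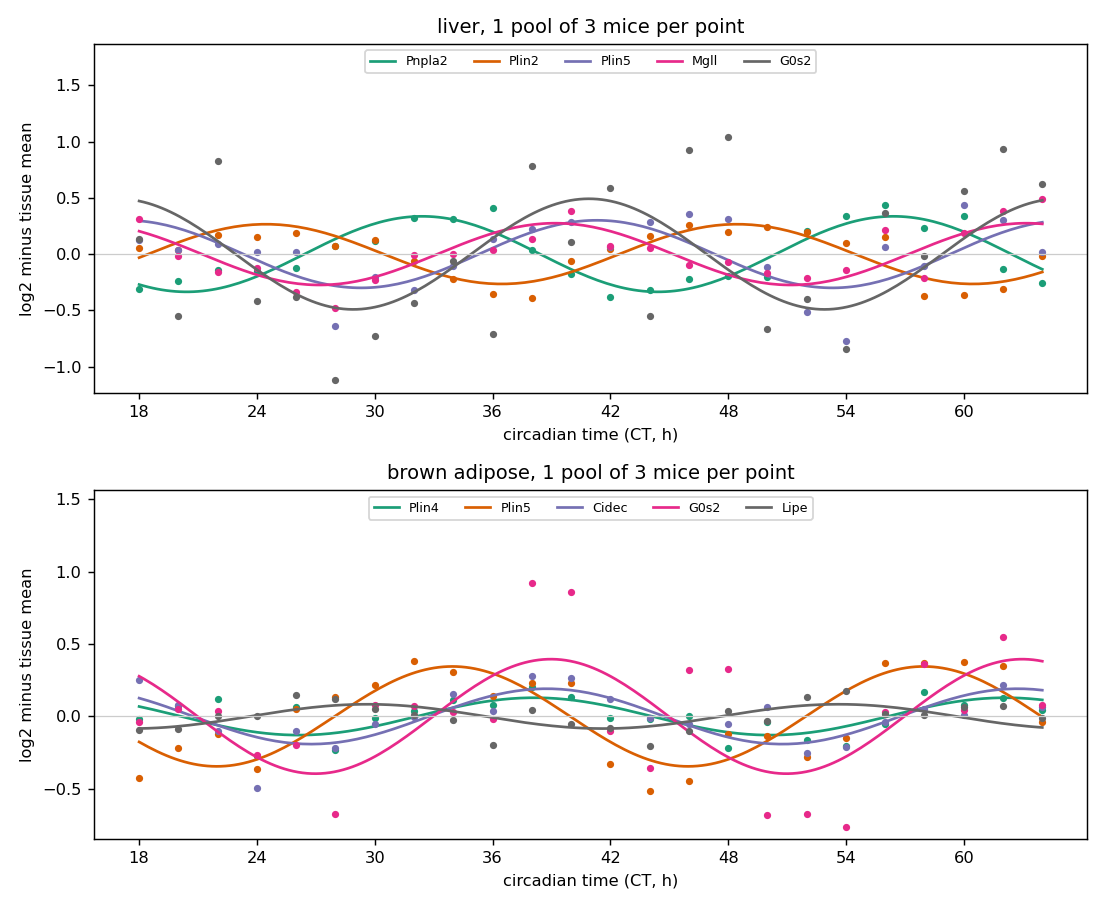
Log2 intensity minus the tissue mean (vertical) against circadian time in h (horizontal) for 5 genes in liver (upper panel) and 5 in brown adipose (lower panel); points are single pools and lines the fitted 24 h waves. In liver Pnpla2 (peak CT8.42) and Plin2 (CT0.460) are out of step with Mgll (CT15.2), and G0s2 has the widest scatter; in brown adipose Plin5 (CT9.95) runs ahead of Cidec (CT14.8) and G0s2 (CT15.0).

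The waves of all 9 members differed between tissues, in a moderated F test of the 22 interaction terms over all 288 arrays, where 49.6% of all genes passed. The adjusted p was 5.21e-19 for Plin5, the lowest of the 9, and 4.26e-05 for G0s2, the highest. Between brown and white adipose 2 of 9 passed (18.6% of all genes): Plin5 (1.61-fold at CT9.95 against 1.13-fold, adjusted p = 6.22e-05) and Plin2 (1.08-fold against 1.20-fold, adjusted p = 0.00987). Neither Plin2 wave passed within its own depot, and the difference was lost in a fit to the 48 arrays of the pair alone (adjusted p = 0.169).

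Between liver and white adipose 5 of 9 passed (26.7% of all genes), with the white adipose arrays shared with the comparison above. Pnpla2 was 1.59-fold in liver and 1.08-fold in white adipose (adjusted p = 1.11e-07), Mgll 1.46-fold and 1.10-fold (6.95e-06), and Plin2 1.45-fold and 1.20-fold with peaks at CT0.460 and CT20.0 (7.82e-05). Lipe was 1.22-fold and 1.16-fold with peaks at CT20.3 and CT9.63 (adjusted p = 0.000706). Plin5 (adjusted p = 0.00151) was lost in the pair alone (0.0544). Between heart and skeletal muscle 4 of 9 passed (6.75% of all genes). They were Plin1 (1.11-fold against 2.35-fold, adjusted p = 4.06e-10), Cidec (1.17-fold against 1.91-fold, 8.93e-07), Plin5 (1.22-fold at CT21.0 against 1.23-fold at CT9.59, 0.000363) and Lipe (1.12-fold against 1.32-fold, 0.00386). Without the arrays that stood apart Plin1 kept its difference, while Cidec (adjusted p = 0.133), Lipe (0.351) and Plin5 (0.0520) did not, and the Plin1, Cidec and Lipe changes in muscle were those that moved with adipocyte markers (r = 0.98, 0.97 and 0.90). The muscle arrays left out (CT22, CT24, CT42, CT44 and CT46) lay around the muscle peaks of Plin1, Cidec and Lipe.

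Peak times were compared between the first and the second day. Of the 35 waves that passed, 34 had peaks within 4 h of each other when each day was fitted alone, with a median gap of 0.960 h. The exception was Lipe in brown adipose, with a gap of 4.16 h. These 35 waves had passed a fit to both days together, which favours waves that repeat, so the count is not a separate check. No such share was taken over all genes. No member's wave differed between the days in limma's moderated F test, in which 0% of all genes passed in each tissue, and 11 of 108 pairs had an unadjusted p under 0.05. Waves of 12 h passed for Cidec (1.79-fold, adjusted p = 0.0255) and Plin1 (1.66-fold, adjusted p = 0.0335) in skeletal muscle, where 6.99% of all genes passed. Both genes moved there with the adipocyte marker mean, which also stood above the neighbouring arrays at CT32 (9.05) and CT56 (8.90). The part of the markers in these 12 h waves was not tested. No member passed in the other tissues, where 4.83% of all genes passed in brown adipose, 0.326% in liver, 0.0602% in lung, 0.00502% each in brainstem, heart and kidney, and 0 in the other 5; over all tissues 20 of 108 pairs had an unadjusted p under 0.05. A straight rise over the 2 days passed for Mgll in kidney, by 0.12 log2 per day (SE 0.032, adjusted p = 0.0406), where 2.97% of all genes passed. No member's trend passed in skeletal muscle (1.74% of all genes), brainstem (0.416%) or the other 9 tissues, where 0 genes passed, and 21 of 108 pairs had an unadjusted p under 0.05.

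Related genes were counted from 7 lists with 107 measured genes. Among 17 other coat and assembly genes, 8 passed in brown adipose (16.5% of all genes passed there), 8 in kidney (25.8%), 7 in liver (26.8%) and 1 in white adipose (4.85%). In brown adipose Hsd17b11, a droplet-bound dehydrogenase, varied 1.29-fold (CT9.12), Fitm2, which helps droplets form, 1.26-fold (CT9.45), Pnpla3, a lipase relative of ATGL, 1.79-fold (CT20.2), and Ldah, a droplet hydrolase, 1.34-fold (CT18.6). Their median fold was 1.16 over the list and 1.09 over all genes. The first pair peaked within 1 h of Plin5. Among 15 other lipases and hydrolases 8 passed in liver (26.8% of all genes) and 6 in kidney (25.8%). In liver Abhd6, another monoacylglycerol hydrolase, varied 1.45-fold at CT15.7, close to Mgll at CT15.2, Ddhd1, a phospholipase, 1.49-fold at CT21.7, its relative Ddhd2, 1.69-fold at CT11.5, and Lipa, the lysosomal acid lipase, 1.26-fold at CT21.0.

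Triacylglycerol synthesis had 10 of 16 genes passing in brown adipose (16.5% of all genes) and 9 in liver (26.8%). In brown adipose Gpat4 (1.77-fold, CT8.84) and Gpam (1.26-fold, CT7.15), which catalyse the first step, and Agpat3 (1.20-fold, CT6.05), an enzyme of the next step, peaked in subjective day, and Lpin1 (1.29-fold, CT16.2), which makes diacylglycerol, in subjective night near Cidec and G0s2. Hormone control of lipolysis had 12 of 17 genes passing in liver (26.8% of all genes), among them the protein kinase A subunits Prkar2a (1.40-fold, CT19.8) and Prkar1a (1.17-fold, CT3.32), the adenylyl cyclase Adcy6 (1.48-fold, CT8.32) and the phosphodiesterase Pde3b (1.19-fold, CT14.9). Fatty acid and glycerol traffic had 8 of 12 in kidney (25.8% of all genes), with the acyl-CoA synthetases Acsl5 (1.31-fold, CT23.8) and Acsl4 (1.24-fold, CT18.9), the glycerol channel Aqp3 (1.26-fold, CT9.55) and the fatty acid carrier Fabp3 (1.17-fold, CT11.6). PPAR factors and targets had 11 of 19 in liver (26.8% of all genes). Ppara (1.49-fold, CT10.1) and Cpt1a (1.51-fold, CT9.26), which admits fatty acids to mitochondria, peaked near Pnpla2, and Ppard (2.48-fold, CT21.5) and Pdk4 (5.33-fold, CT21.8) near Lipe. The 11 clock genes used as a reference all passed in 10 tissues, 10 passed in brainstem and 7 in hypothalamus. In adrenal gland Arntl varied 8.85-fold (CT20.9), Dbp 6.80-fold (CT8.31), Nr1d2 3.24-fold (CT8.66) and Per3 3.20-fold (CT10.9).

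The genes most like each member over time were found by the correlation over 288 arrays of log2 values minus the tissue mean, which share their arrays and are given as a description. For Plin1 they were Adipoq (r = 0.87) and Cidec (0.81), and for Cidec Plin1 and Adipoq (0.80). For Plin4 they were Zbtb16 (0.51) and Pnpla2 (0.51), for Plin5 Esrra (0.58) and Miga2 (0.57), and for Plin2 Cpt2 and Rxrg (0.61 each). G0s2 was closest to Angptl8 (0.68) and Ppp1r3b (0.61), Pnpla2 to Fgfrl1 (0.63) and Klf13 (0.62), Lipe to Fabp4 (0.64) and Aoc3 (0.62), and Mgll to Letmd1 (0.60) and Sfxn5 (0.58). Over the 12 tissue means the closest were Adig and Lgals12 for Plin1 (0.99 each), Lgals12 and Plin1 for Cidec (0.99 each), B2m and Alas1 for Plin2 (0.98 and 0.97), Htra3 and Gm11681 for Plin4 (0.95 each) and Slc25a20 for Plin5 (0.96), after Olfr618 (0.96). They were Pparg and Osbpl11 for G0s2 (0.97 and 0.96), Cyp2b23 and Fabp4 for Pnpla2 (0.97 and 0.96), Ifi27l2a and Adig for Lipe (0.98 each), and G0s2 and 1810062G17Rik for Mgll (0.94 and 0.93).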

How the data were processed

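RNA of 12 tissues was measured on 288 arrays, 1 per tissue and time point. The tools named in the submitters' processing notes are Affymetrix Expression Console and GCRMA, with versions not given in the sources used here. The deposited values are intensities on a linear scale (6.9 to 45307.8), and log2 was taken here with no pseudocount. The planned tests assumed log2 values, which this supplied. Array medians alike in all tissues and a spread that differed between tissues point to normalization per tissue, so waves were fitted per tissue. Of 35556 probe sets, 21789 had 1 gene symbol, 1621 several and 12146 none. Where a gene had several probe sets, the brightest on average stood for it. No filter on dim genes was applied, so all 9 members entered every main fit. In the alternative restricted to genes above the tissue median, 84 of 108 pairs remained. Positions and promoters are from RefSeq tables of GRCm38.p6.

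Waves were tested with limma 3.58.1 in R 4.3.3 (cosine and sine of 24 h, moderated F test with a trend on mean expression, Benjamini-Hochberg adjustment over 19938 genes, threshold 0.05). Tissue differences used 1 fit to all arrays. Tests of 12 h waves held the 24 h and 8 h pairs, and trends and days the 24 h pair. Permutation tests were two-sided or on wave size and used 100000 shuffles with numpy 2.4.6. An array stood apart when a marker mean lay further from its median in that tissue than 5 median absolute deviations (scaled as an SD) and than 1 on the log2 scale, or when its correlation lay lower by 5 such deviations and by 0.003. The fit was tested on simulated data. The members, lists and named genes were chosen with earlier results of these data known. Of the related genes, up to 4 per list with the smallest adjusted p in the tissue with most passing were named. There are no replicates at a time point, so precision rests on the 24 arrays of a tissue.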

Additional observations from a re-analysis of the deposited data

Results flagged for a closer look

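The 24 h wave differed between tissues for all 9 members in limma's test of interaction terms over 12 tissues. The adjusted p was 8.51e-14 for Plin1, 2.18e-10 for Plin2, 2.96e-09 for Plin4, 5.21e-19 for Plin5 and 2.64e-14 for Cidec. It was 4.26e-05 for G0s2, 1.84e-08 for Pnpla2, 1.01e-13 for Lipe and 1.50e-08 for Mgll. Since 49.6% of all genes passed this test, passing it does not set the members apart.

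In pairs of tissues, Plin2 (adjusted p = 0.00987) and Plin5 (6.22e-05) differed between brown and white adipose. Plin1 (4.06e-10), Cidec (8.93e-07), Plin5 (0.000363) and Lipe (0.00386) differed between heart and skeletal muscle. Plin2 (7.82e-05), Plin5 (0.00151), Pnpla2 (1.11e-07), Lipe (0.000706) and Mgll (6.95e-06) differed between liver and white adipose. The brown and liver comparisons share the white adipose arrays.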

How the results depend on the processing

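Of the 35 waves that passed, 15 were lost under some alternative other than the moderated fit of rank-based normal scores. The other 20 held under all but those scores, and 13 of these 20 held under every one of up to 16 alternatives. With those scores in the moderated fit 17 of 108 pairs passed. Such scores have nearly the same variance in every gene, the estimated prior degrees of freedom were infinite in 11 of 12 tissues, and 0 of 19938 genes passed in 6 tissues; with an ordinary F test on the same scores, an alternative chosen after seeing the data, 34 pairs passed and 33 were shared. Under the other alternatives between 31 and 46 pairs passed. With the adipocyte mean as a covariate 28 of the 35 were shared and 7 were new. The kidney wave of Plin1 turned in time under that covariate (1.10-fold) and under the 5-marker mean (1.11-fold, chosen after seeing the data). Tissue differences passed for all 9 members under each alternative, the time point as a replicate block included (9 of 9 over 12 tissues, 11 of 27 in pairs), and 8 of 27 pair differences passed without the arrays that stood apart and in the pair alone. In alternatives chosen after seeing the data, 12 h waves passed for 0 of 108 pairs with limma after quantile normalization (25 at an unadjusted p under 0.05, 2 passing in the main fit). Trends passed for 0 without the arrays that stood apart (20 at an unadjusted p under 0.05) and 0 after quantile normalization (16). The causes were not tested. For Pnpla2 minus G0s2, 4 to 7 of 12 tissues passed. Levels between tissues rest on a normalization that appears separate per tissue, and waves on 24 pools each.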
